A study of Mus musculus with 4 samples.

Results

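EpCAM-negative-only regions inside genes are stretches of open chromatin that were detected in both EpCAM-negative DN3 libraries, in neither EpCAM-positive library, and within a protein-coding gene. They numbered 347 of the 36224 regions found in the 4 libraries, and made up 1.58% of the 22030 regions inside genes. DN3 thymocytes are immature T cell precursors, taken here from the thymus of WT mice. The 2 EpCAM-negative libraries hold the DN3 cells that stayed unlabelled in a magnetic separation for EpCAM after flow sorting. The 2 EpCAM-positive libraries hold the labelled cells. Ages and strains are not given in the labels, and nothing there says whether libraries 1 and 2 of a fraction came from different mice. Chromatin was profiled by ATAC-seq, in which a transposase cuts accessible DNA and attaches sequencing adapters to it.

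Members were chosen by their calls, so presence in the EpCAM-negative lists and absence from the EpCAM-positive lists describe how they were picked and are not findings. Overlapping peaks of the 4 lists on chromosomes 1 to 19, X and Y were joined into regions. Each region was placed by the summit of its peak with the highest fold enrichment over local background, against RefSeq gene spans of the mouse build mm10 (GRCm38). Of 623 EpCAM-negative-only regions anywhere, 347 (55.7%) had that summit inside a gene. They lay in 338 host genes, and 3 members had their summit in 2 genes at once. Exons and introns were not annotated here.

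Accessible sites inside genes are of 2 main kinds. Some are promoters, where transcription starts, and others are mostly intronic elements such as enhancers, which bind transcription factors and can act on their host gene or on a more distant one. In DN3 cells such factors include TCF1, GATA3, RUNX1, E proteins, Ikaros and Notch with RBPJ, which together carry the cells through rearrangement of the T cell receptor beta gene. EpCAM is an adhesion molecule best known from epithelia.

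Where a member reached a RefSeq promoter window, from 250 bases before to 50 bases after a start, its DNA could be shown. The 6 stretches here belong to members at starts of immune or regulatory genes and of Dio2, and are the parts upstream of the start that lie inside the member (RefSeq, GRCm38.p6), written 5′ to 3′ in the direction of the gene. Capitals mark matches on either strand to short motif strings spelled out after the sequences.
Rhoh, chr5:65863334-65863525, plus strand: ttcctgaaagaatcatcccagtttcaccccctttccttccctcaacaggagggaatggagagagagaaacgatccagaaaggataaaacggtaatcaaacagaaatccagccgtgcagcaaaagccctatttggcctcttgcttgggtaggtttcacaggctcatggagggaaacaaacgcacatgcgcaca
Deaf1, chr7:141338784-141338932, minus strand: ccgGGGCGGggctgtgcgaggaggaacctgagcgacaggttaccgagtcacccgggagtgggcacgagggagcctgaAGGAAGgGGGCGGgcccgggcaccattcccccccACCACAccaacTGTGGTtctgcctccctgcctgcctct
Evi2b, chr11:79523783-79524006, minus strand: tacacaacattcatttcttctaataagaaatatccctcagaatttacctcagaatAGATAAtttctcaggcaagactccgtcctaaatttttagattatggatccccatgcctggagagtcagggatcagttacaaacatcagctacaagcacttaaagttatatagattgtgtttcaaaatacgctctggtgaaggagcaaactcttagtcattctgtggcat
Dgkz, chr2:91950476-91950598, minus strand: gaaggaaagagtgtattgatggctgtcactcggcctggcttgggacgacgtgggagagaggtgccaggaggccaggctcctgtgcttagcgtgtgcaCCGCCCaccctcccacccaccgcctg
Lyl1, chr8:84701388-84701456, plus strand: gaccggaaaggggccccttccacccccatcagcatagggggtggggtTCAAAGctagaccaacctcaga
Dio2, chr12:90739039-90739133, minus strand: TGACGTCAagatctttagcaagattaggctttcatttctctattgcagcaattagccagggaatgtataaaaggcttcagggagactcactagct

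The strings searched on both strands stand for 12 motifs. They are AGGAAG for the core and CCGGAAGT for the longer form of the ETS motif, TGTGGT for RUNX factors, CAGCTG for E proteins, CTTTGA for TCF1 and LEF1, AGATAA for GATA factors, GGGCGG for the GC box of SP and KLF factors, TGGGAA for Ikaros, TGACGTCA for the cyclic AMP response element (CRE), AGGTCA for ROR factors and GCGTGGGCG for EGR factors, beside TGANTCA for AP-1. EGR and GC box matches can overlap.

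The Deaf1 stretch lies between the divergent starts of Deaf1 and Eps8l2. It held 2 matches to the RUNX string. At least 1 is held by 8.33% of all 32851 promoter windows in the same 149 bases before the start. The stretch also held 2 matches to the GC box string, with at least 1 in 28.6% of windows, and 1 match to AGGAAG, held by 19.6%. At Dio2, which encodes an enzyme that activates thyroid hormone and whose member had 10 and 9 fragments at its summit in the EpCAM-negative libraries, the stretch held the CRE string, present in the same 95 bases of 1.13% of windows. The Lyl1 stretch held 1 match to the TCF1/LEF1 string, present in the same 69 bases of 3.24% of windows, and the Evi2b stretch 1 match to the GATA string, found in 9.28%. Evi2b encodes a membrane protein of blood cells, and its member, placed in the overlapping gene Evi2, had 11 and 14 fragments. Dgkz had 1 match to the SP/KLF string, found in 13.2%, and Rhoh had none of the 12. Over all 16 stretches of members upstream of a start, 6 held the GC box string, 2 AGGAAG and 2 the RUNX string. The 1 member at Deaf1 was counted from the Deaf1 and the Eps8l2 start. It gave 2 of the 6 GC box stretches and all of those with AGGAAG or the RUNX string. The TCF1/LEF1, GATA, CRE and ROR strings were in 1 stretch each, and the E protein, Ikaros, AP-1, EGR and longer ETS strings in none. Over the full 250 bases before all starts, longer than most of these stretches, the GC box string was in 32.7%, AGGAAG in 29.5%, the Ikaros string in 21.6%, RUNX in 4614 of 32851 windows, TCF1/LEF1 in 13.8% and the E protein string in 13.0%. A match is a string of letters and does not show that a factor was bound.

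Promoter windows were seldom reached. Of the 334 members outside chromosome 18, which the promoter table used here does not cover, 18 (5.39%, 95% interval 3.22 to 8.38) overlapped a window. This compares with 160 of 914 EpCAM-positive-only regions inside genes (17.5%, 15.1 to 20.1) and 5411 of 10549 regions called in all 4 libraries (51.3%, 50.3 to 52.3). Intervals of shares here and below are exact Clopper-Pearson intervals at 95% and cover counting error only.

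The lists behind these calls held 24598 and 25924 peaks in the EpCAM-negative libraries and 26029 and 29030 in the EpCAM-positive libraries. Total reads per library are not known from these lists. The lowest local background at any peak was 0.29 and 0.286 fragments in the EpCAM-negative libraries and 0.388 and 0.383 in the EpCAM-positive libraries. Of 15 genes that mark DN3 cells, 10 and 9 had a region within 1 kb of a gene end in the EpCAM-negative libraries and 9 in each EpCAM-positive library. Il2ra, Notch1, Bcl11b, Cd3e, Cd3g and Cd3d had one in all 4 libraries, and Notch3, Dntt and Gata3 in none. Rag1 had one in both EpCAM-negative libraries and in neither EpCAM-positive library. Ptcra lacked one only in EpCAM-positive library 1, and Thy1 only in EpCAM-negative library 1. Rag2 and Tcf7 had one in library 1 of each fraction, and Lck in EpCAM-positive library 2 alone. Of 11 thymic epithelial markers, 3 and 4 did in the EpCAM-negative and 4 and 5 in the EpCAM-positive libraries. Aire, Cldn4 and Ly75 had one in all 4, Foxn1, Psmb11, Krt5 and Krt14 in none, and Epcam itself in EpCAM-negative library 2 and both EpCAM-positive libraries. The part of other cells in the results was not tested. B cell markers had 1 of 7 in each library. Members lay inside Thy1 of the DN3 markers, Etv5 of the gamma-delta markers and Klrd1 of the natural killer markers. They were 1 of 40, 1 of 14 and 1 of 15 regions inside the genes of these lists. None of the 14 double-positive, 7 B cell, 11 myeloid, 7 epithelial and 2 erythroid regions inside marker genes was a member. Over all regions inside genes the share was 1.58%, so the marker lists hold too few regions to compare cell types.

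Among all regions inside genes, 1.58% were EpCAM-negative-only and 4.31% were EpCAM-positive-only, 347 against 949 regions. The ratio was 0.366 (95% interval 0.323 to 0.413). Among regions inside genes called in 2 or more lists, members made up 2.18%. Outside genes 1.94% of regions were EpCAM-negative-only, and over all places 1.72%. Regions called in exactly 1 library of each fraction are called mixed below. They have as many calls as members and show no difference between fractions. Their 4 patterns held 286, 373, 278 and 498 regions inside genes, with a mean of 358.75. The number of members therefore lay within the range of the mixed patterns, while the EpCAM-positive-only number lay above it. An exact permutation test of 2 libraries against 2 cannot go below a two-sided p of 0.33, so no region was tested singly.

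**Figure D1:**
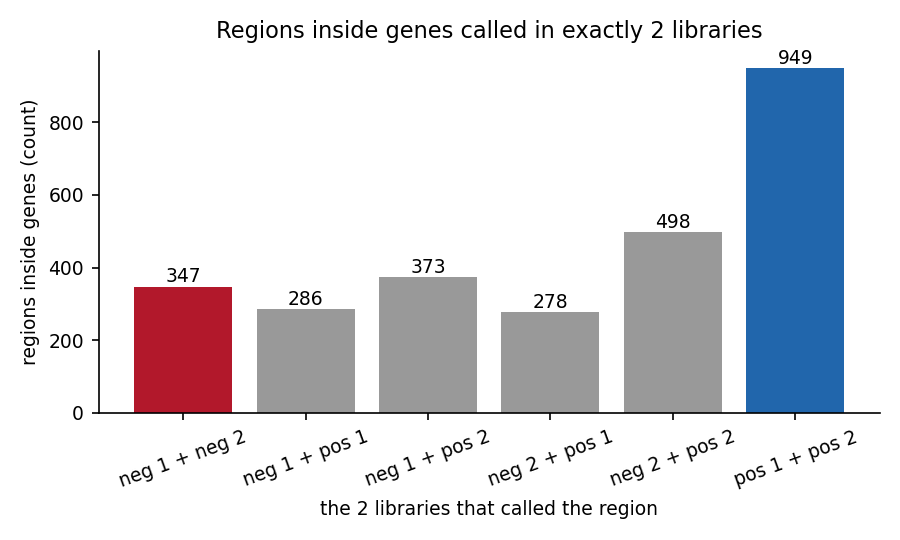
Number of regions inside genes (y axis) for each pair of libraries that alone called them (x axis; neg and pos are EpCAM-negative and EpCAM-positive libraries 1 and 2). The EpCAM-negative pair alone called 347, the 4 mixed pairs 278 to 498 and the EpCAM-positive pair alone 949.

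These counts depended on single libraries. With 1 library left out its fraction needs only 1 call. The EpCAM-negative-only and EpCAM-positive-only counts inside genes were 1715 and 1730 when EpCAM-negative replicate 1 was left out, and 1427 and 1739 when it was replicate 2 of that fraction. Leaving out EpCAM-positive replicate 1 gave 680 and 3348, and leaving out replicate 2 gave 876 and 2678. With lists of equal length they were 447 and 659.

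Members were weak peaks, close in height to mixed regions, and of similar height in both libraries. Summit fragments, the number of fragments piled up at a peak's summit, were worked back from the authors' fold and −log10 p. They ran from 4 to 31 in EpCAM-negative library 1 and from 4 to 40 in library 2, with a median of 9 in each. The median fold over local background, as the authors' peak caller gave it, was 5.54 and 5.57. By −log10 q the median member stood at percentile 21.2 of the library 1 list and 22.8 of the library 2 list, and no member passed percentile 63.5 and 64.4. Library 1 was higher for 136 members, library 2 for 146, and 65 were equal. The summit of library 1 lay a median of 47 bp from that of library 2, against 64 bp between the EpCAM-positive summits of EpCAM-positive-only regions, 57 bp in mixed regions and 38 bp between the EpCAM-negative summits of regions called in all 4 libraries. Median widths were 314 bp for members, 356 bp for EpCAM-positive-only, 325 bp for mixed and 691 bp for regions in all 4. Summit fragments averaged over the calling libraries had a median of 9 for members and 9.5 for mixed regions. For EpCAM-positive-only regions it was 11 and for regions in all 4 it was 28.75. The median lower −log10 q was 4.888, 4.662, 5.226 and 14.28 in the same order.

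**Figure D2:**
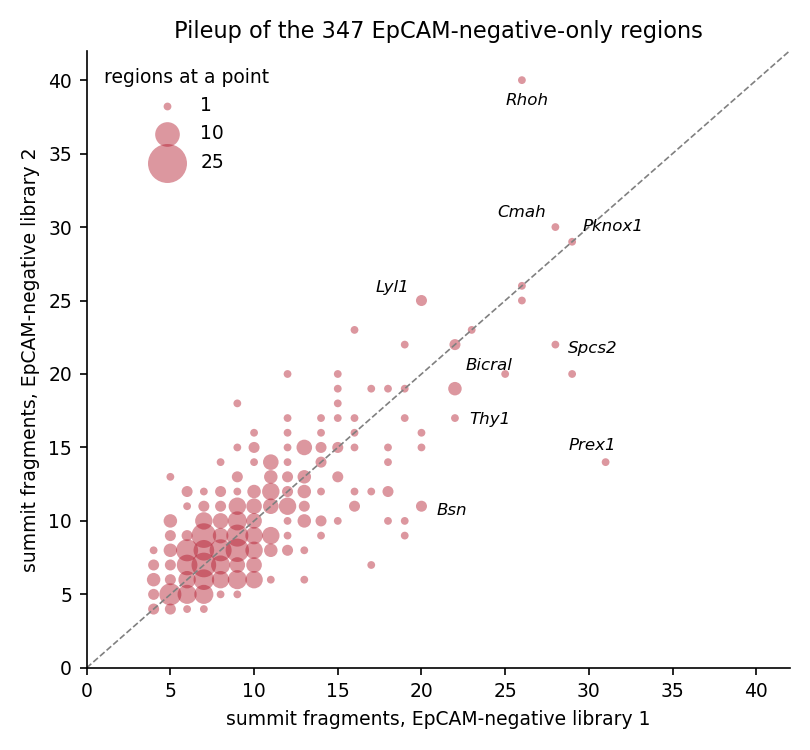
Summit fragments of each member in EpCAM-negative library 1 (x axis) and library 2 (y axis); a larger point stands for more members at the same pair of values, and the dashed line marks equal values. Most members lie at 12 fragments or fewer in both libraries, and Rhoh, at 26 and 40, stands above the rest.

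Only 13 members had at least 20 summit fragments in both libraries, and 5 differed by more than 2 times between them. Rhoh, which encodes a blood-cell GTPase needed for signalling of the pre-T cell receptor, had 26 and 40. Its region, chr5:65863238-65863525, ended 19 bp before a region called in all 4 libraries that covers a second RefSeq start of the gene, 172 bp downstream of the summit. Prex1, an activator of Rac, had 31 and 14 at chr2:166655975-166656341, with an EpCAM-positive peak 140 bp away. Enpp2, which encodes autotaxin, had 17 and 7, with no EpCAM-positive peak within 151486 bp. Emilin2 had 19 and 9, Csmd3 13 and 6, and Lnpep 5 and 13. Rhoh and these 5 were named after their values were seen.

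The weakest members by −log10 q were in Pcca (8 and 5 summit fragments), Lnpep, and Creb1 (5 and 4), whose lower −log10 q was 2.29, 2.36 and 2.39. Just outside the rule stood regions called in both EpCAM-negative libraries and weakly in 1 EpCAM-positive library. Those with the weakest EpCAM-positive peak were in Cd226 (8 and 9 fragments in the EpCAM-negative libraries, 5 in EpCAM-positive library 1), Gprin3 (7 and 8, against 6) and Htr1f (11 and 8, against 5). The height of members at this edge thus overlapped that of regions the rule left out.

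Absence from the EpCAM-positive lists is the absence of a listed peak and not a measured level. The lowest summit was 5 fragments in either EpCAM-positive list and 3 in either EpCAM-negative list. The lists also ended at different −log10 q, 1.32 and 1.34 in the EpCAM-negative and 2.07 and 2.02 in the EpCAM-positive libraries. The weakest member had a −log10 q of 2.29, so by this value a listed EpCAM-positive peak could be weaker than any member. By summit fragments it could not, as members went down to 4 in each EpCAM-negative library.

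Next to the EpCAM-positive peaks, 302 members (87.0%) had none within 500 bp and 167 (48.1%) had none within 10 kb. The other 45 (13.0%, 9.62 to 17.0) had one within 500 bp. EpCAM-positive-only regions had an EpCAM-negative peak that near in 139 of 949 cases (14.6%, 12.5 to 17.1), so the intervals overlapped. For those 45, the nearest region with an EpCAM-positive peak was called in all 4 libraries in 14 cases, in a single library in 13, was mixed in 9 and EpCAM-positive-only in 4. At B3gnt5 and Dgkz an EpCAM-positive peak began 2 bp away, and at Btrc 1 bp away.

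**Figure D3:**
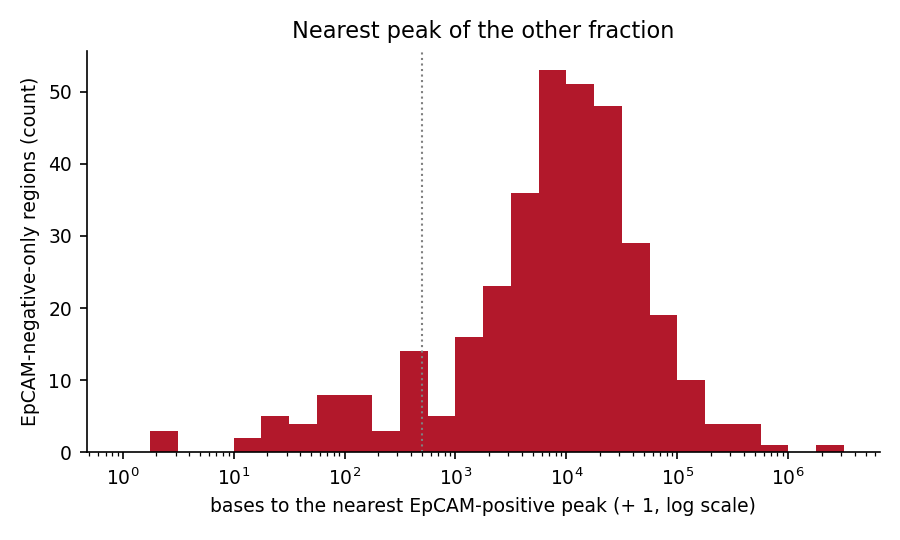
Bases from each member to the nearest EpCAM-positive peak (x axis, log scale, 1 added) with the number of members per bin (y axis); the dotted line marks 500 bp. Most members lie between 1 kb and 100 kb from such a peak, and 45 lie to the left of the line.

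Members lay deep inside long genes and seldom at their ends. Their summits were a median of 18140 bp from the nearer gene end, against 6769 bp for EpCAM-positive-only, 11270 bp for mixed and 767 bp for all-4 regions inside genes. Within 1000 bp of an end were 38 of 347 members (11.0%, 7.87 to 14.7), 273 of 949 EpCAM-positive-only (28.8%, 25.9 to 31.8), 287 of 1435 mixed regions (interval 18.0% to 22.2%) and 5683 of 10840 all-4 regions (52.4%, 51.5 to 53.4). The interval for members overlapped none of the others. No p-value is given, because regions are not replicates. Without EpCAM-positive replicate 1 the share was 18.1% for EpCAM-negative-only and 25.4% for EpCAM-positive-only regions, the closest the shares came under any alternative.

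**Figure D4:**
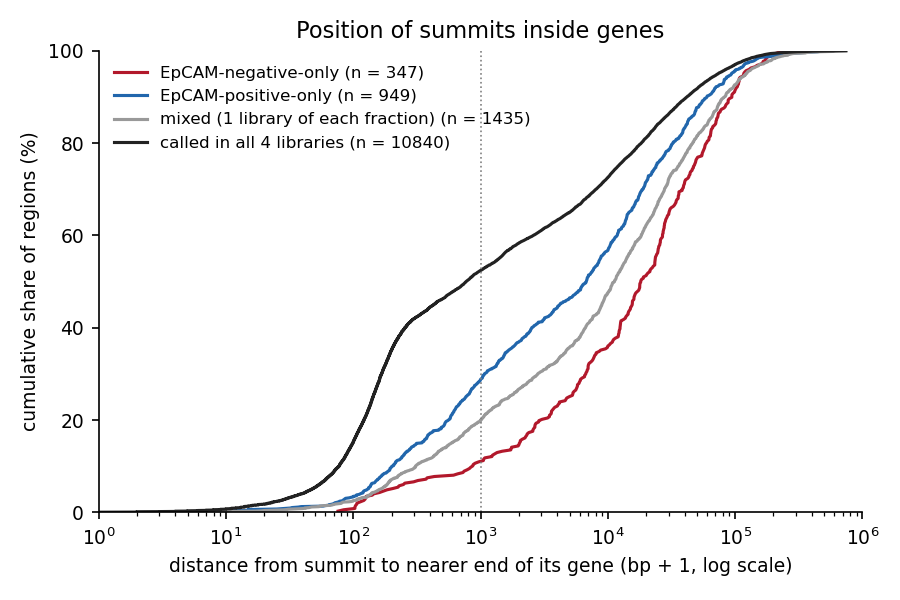
Cumulative share of regions inside genes (y axis, percent) by the distance of the summit from the nearer end of its gene (x axis, bp on a log scale, 1 added), for EpCAM-negative-only, EpCAM-positive-only, mixed and all-4 regions; the dotted line marks 1000 bp. The EpCAM-negative-only curve runs lowest at that line, at 11.0%, and the all-4 curve highest, at 52.4%.

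The share of regions at a gene end also moved with peak height in the other classes. With a mean of under 8 summit fragments, 12 of 111 members (10.8%, 5.71 to 18.1) and 26 of 116 EpCAM-positive-only regions (22.4%, 15.2 to 31.1) lay at a gene end, and these intervals overlap. Mixed regions of that height had 50 of 380 (13.2%, 9.93 to 17.0) and all-4 regions 14 of 67 (20.9%, 11.9 to 32.6), and these intervals overlap that of members too. From 8 to under 12 fragments it was 16 of 141 members (11.3%, 6.63 to 17.8) and 93 of 412 EpCAM-positive-only regions (22.6%, 18.6 to 26.9), with 137 of 669 mixed (20.5%, 17.5 to 23.7, which overlaps the interval of members) and 208 of 777 all-4 regions (26.8%, 23.7 to 30.0). At 12 or more it was 10 of 95 members (10.5%, 5.16 to 18.5) and 154 of 421 EpCAM-positive-only regions (36.6%, 32.0 to 41.4), with 100 of 386 mixed (25.9%, 21.6 to 30.6) and 5460 of 9995 all-4 regions (54.6%, 53.6 to 55.6). Where the strand was known, 23 of 267 members (8.61%, 5.54 to 12.6) were within 1000 bp of the transcription start of their gene. This compares with 191 of 1138 mixed regions (16.8%, 14.7 to 19.1) and 183 of 749 EpCAM-positive-only regions (24.4%, 21.4 to 27.7). At the 3′ end it was 6 members (2.25%, 0.829 to 4.83) and 29 EpCAM-positive-only regions (3.87%, 2.61 to 5.51), with overlapping intervals.

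Host genes were long. The median host gene of a member spanned 93726.5 bp, that of an EpCAM-positive-only region 57152 bp, a gene with any region inside 28268 bp and a protein-coding gene 17169 bp. These count each gene once. Counted once per region, the median was 96770 bp for members and 81270 bp for mixed regions, so most of this length was shared with mixed regions. It was 59940 bp for EpCAM-positive-only and 38990 bp for all-4 regions. Of 11242 genes with a region inside, 338 (3.01%) held a member, which is 1.54% of all 21887 genes. A region called in all 4 libraries lay within 1 kb of an end of 160 of the 338 host genes (47.3%, 41.9 to 52.8). It did so for 362 of 889 EpCAM-positive-only host genes (40.7%, 37.5 to 44.0) and 63.4% of genes with any region. Over all protein-coding genes it was 42.8%, which lies within the interval for members' hosts. Inside the gene, 229 host genes of members (67.8%, 62.5 to 72.7) had a region called in all 4 libraries, against 480 EpCAM-positive-only host genes (54.0%, 50.7 to 57.3). Among genes with any region the share was 72.2%, which lies within the interval for members' hosts. Such a region inside by itself places a gene in that set, and 8118 of the 11242 genes had one. Over all protein-coding genes the share was 37.1%. Members made up 0.802% (chromosome X) to 2.39% (chromosome 14) of the regions inside genes on these chromosomes, and chromosome Y had none among 4.

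Some host genes carried open sites of both kinds. Of the 338 host genes, 61 (18.0%) also held an EpCAM-positive-only region, which is 6.86% of the 889 genes with one. Among all genes with a region inside, 7.91% held an EpCAM-positive-only region. These 61 genes had a median length of 157994 bp, and the closest opposite pair lay a median of 30800 bp apart. In Arid1a, a subunit of the BAF chromatin remodelling complex, the EpCAM-negative-only region (8 and 9 summit fragments) lay 110 bp from an EpCAM-positive-only one (9 in each EpCAM-positive library). Acap1, a GTPase-activating protein of membrane recycling, had 9 and 8 fragments in its EpCAM-negative-only region and 12 and 13 in the EpCAM-positive-only one, 76 bp away. Bach2, a repressor that restrains T cell effector differentiation, had 2 of each kind. Its EpCAM-negative-only regions had 16 and 11 and 10 and 16 fragments, against 20 and 25 and 9 and 7 in its EpCAM-positive-only ones.

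Of the host genes, 8 held more than 1 member. Clec16a, which acts in endosomes and mitophagy, had 3 over 91598 bp, with 19 and 22, 22 and 22, and 12 and 12 summit fragments, among 17 regions inside the gene. Serinc5, a membrane protein known for restricting retroviral infectivity, had 2 at 2201 bp from each other (11 and 12, 11 and 9), the closest pair. The E protein gene Tcf4 had 2 (8 and 9, 10 and 6) and Tmod3, an actin-capping protein, 2 (6 and 8, 6 and 12). Map4k4 had 17 and 12 and 9 and 7, Frmd4b 13 and 11 and 5 and 9, and Arhgap26 8 and 9 and 10 and 7.

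Of the 20 strongest members by their lower −log10 q, 19 lay more than 1000 bp from a gene end. Bicral, a subunit of a BAF complex, came first with 22 summit fragments in each library and folds of 9.04 and 8.46, at chr17:46874245-46874558. A region called in all 4 libraries lay 3120 bp away. Elfn2, which encodes a synaptic adhesion protein, had 23 in each at 2854 bp from the gene's start. Ptprn2 (14 and 15) and Pakap (13 and 15), which encode a secretory-granule phosphatase-like protein and a kinase anchor, had theirs at 174369 and 205997 bp from the nearer end of genes of 792473 and 462510 bp. No EpCAM-positive peak was within 173862 bp of the Ptprn2 region.

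Srebf2, the regulator of cholesterol synthesis, was also among these 20, with 26 and 25 summit fragments at 15035 bp from its start, and an EpCAM-positive peak lay 3172 bp away. Spcs2, a subunit of the signal peptidase complex, had 28 and 22. Cmah, which hydroxylates a sialic acid, had 28 and 30 and the lower folds of 4.66 and 4.9. Slc15a4, a lysosomal histidine and peptide transporter, had 12 and 11, and Upb1, an enzyme of pyrimidine breakdown, had 20 and 15.

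Thy1, the CD90 antigen of thymocytes, had 22 and 17 summit fragments at chr9:44047096-44047365, 1345 bp from a gene end and 3135 bp from an EpCAM-positive peak. The serotonin receptor gene Htr2a had 14 and 17, 5595 bp from its start and with the summits of the libraries 1 bp apart. Grhl3, an epithelial transcription factor, had 11 and 13, and Rere, a nuclear corepressor, had 15 and 19. Tmem108 (16 and 17), Iqce (14 and 16), Ap1ar (17 and 19) and the strongest regions of Clec16a and Frmd4b were also among the 20. Pknox1, a TALE homeobox gene, was the one of the 20 within 1000 bp of a gene end, with 29 in each library and an EpCAM-positive peak 117 bp away.

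The 15 members nearest to a gene end lay 75 to 160 bp inside. Deaf1, a transcription factor, had 7 and 6 summit fragments over its start, and Lyl1, a basic helix-loop-helix factor of blood progenitors, had 20 and 25 at 124 bp from its start. Id1, an inhibitor of E proteins, had 12 and 13 at 144 bp from an end, 691 bp from an EpCAM-positive peak. Hmox1, which encodes heme oxygenase 1, had 12 and 11, and the C1q-receptor-like gene Cd93 had 13 and 10 with no EpCAM-positive peak within 33863 bp. Krtcap3 had 10 and 10, Acpp, which encodes prostatic acid phosphatase, 9 and 8, Lzts3 9 and 7 and Lzts1 9 and 9. The lens crystallin gene Crybb3 (7 and 6), Chil5 (7 and 7), BC024063 (9 and 6) and the olfactory receptor gene Olfr658 (6 and 5) were also among them, with Pknox1. Of the 38 members within 1000 bp of an end, 23 were at the start, 6 at the 3′ end and 9 in genes whose strand was not in the table used.

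T lineage transcription factors held 9 members in 8 of 43 genes, which is 3.96% (1.83 to 7.39) of the 227 regions inside them, beside 1.58% of all regions inside genes. EpCAM-positive-only regions made up 4.85% of them, beside 4.31%. Of genes with a region inside, 3.01% held a member, and of all protein-coding genes, with a median length of 17169 bp, 1.54% did. Ikzf1, which encodes Ikaros, had 13 summit fragments in each library at chr11:11736799-11737300, 4300 bp from a region called in all 4 libraries. Tcf12, which encodes the E protein HEB, had 12 and 8, Tox 7 and 9, Tox2 8 and 11, Rora 7 and 10 and Nfatc1 9 and 9. Tcf4 and Id1 are given above. The 43 genes of the list have a median length of 81773 bp, and Tcf7, Gata3, Bcl11b and Runx1 held no member.

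In the Notch list 3 of 82 regions (3.66%, 0.761 to 10.3) were members, beside 1.58% of all regions inside genes, and 3 were EpCAM-positive-only. Dtx1, a Deltex ubiquitin ligase and Notch target, had 9 and 13 summit fragments at chr5:120696934-120697369. The Mastermind coactivator genes Maml3 and Maml2 had 9 and 10, and 4 and 7. Among pre-TCR and TCR signalling genes 1 of 173 regions (0.578%) was a member, against 6 EpCAM-positive-only. It lay in Dgkz, a diacylglycerol kinase that damps TCR signalling, with 13 and 12 summit fragments and 2 bp from a region called in all 4 libraries. V(D)J recombination genes had 0 of 17, and genes of the interleukin-7 receptor and STAT axis 0 of 62.

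Progenitor legacy genes are a list of genes of early blood precursors that T cells shut down. They had the highest share of the lists, 4 of 53 regions (7.55%, 2.09 to 18.2), beside 1.58% of all regions inside genes. EpCAM-positive-only regions numbered 3 (5.66%), beside 4.31%. Regions within 1 kb of a gene end went the other way. They lay at 9 and 7 of the 21 genes in the EpCAM-negative libraries and at 13 in each EpCAM-positive library. Besides Lyl1 the genes with a member included Zfpm1, a GATA cofactor (11 and 9 summit fragments), and the TALE homeobox gene Meis1 (6 and 8). The nearest EpCAM-positive peak was 93561 bp away at Meis1. The share rests on 4 weak to moderate peaks, and no test of the list was made.

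Chromatin modifiers and remodellers held 8 members in 8 of 57 genes. A member was held by 3.01% of genes with a region inside and by 1.54% of all protein-coding genes. EpCAM-positive-only regions numbered 9 (4.57%), beside 4.31% of all regions inside genes. Members made up 4.06% (1.77 to 7.84) of the list's 197 regions, beside 1.58%. Besides Bicral and Arid1a they were in the BAF subunit gene Arid1b (10 and 8 summit fragments), the remodeller Chd7 (15 and 15), the DNA methyltransferase Dnmt3a (10 and 15), the histone methyltransferase Dot1l (13 and 15), the demethylase Kdm2b (12 and 16) and the deacetylase Hdac4 (16 and 12). An EpCAM-positive peak lay 118 bp from the Dot1l region and 22 bp from that of Hdac4. Of these 8 genes, Arid1a, Arid1b, Dnmt3a, Dot1l and Kdm2b also held an EpCAM-positive-only region. The median length of the list's genes was 77762 bp, against 17169 bp over all protein-coding genes, so these shares of genes are not alike in gene length.

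The remaining lists given here held 0 to 3 members each. Over all regions inside genes the share of members was 1.58%. The Wnt list had 3 of 53 (5.66%, 1.18 to 15.7), in Bcl9 (8 and 8), Lrp5 (12 and 8) and Btrc (6 and 8). EpCAM-positive-only regions numbered 4 in the Wnt list (7.55%), beside 4.31% of all regions inside genes. Adhesion and migration had 2 of 75, among them Ccr4 (14 and 12), a chemokine receptor gene. The PI3K list had 1 of 72, in Deptor (9 and 8), an mTOR inhibitor, and the cholesterol and lipid list had Srebf2 alone of 44. NF-kappaB genes had 0 of 48 and cell cycle genes 0 of 47. Among the cell type markers Etv5, a factor of gamma-delta T cells, had 11 and 13, and Klrd1, which encodes the natural killer receptor CD94, had 10 and 6.

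**Figure D5:**
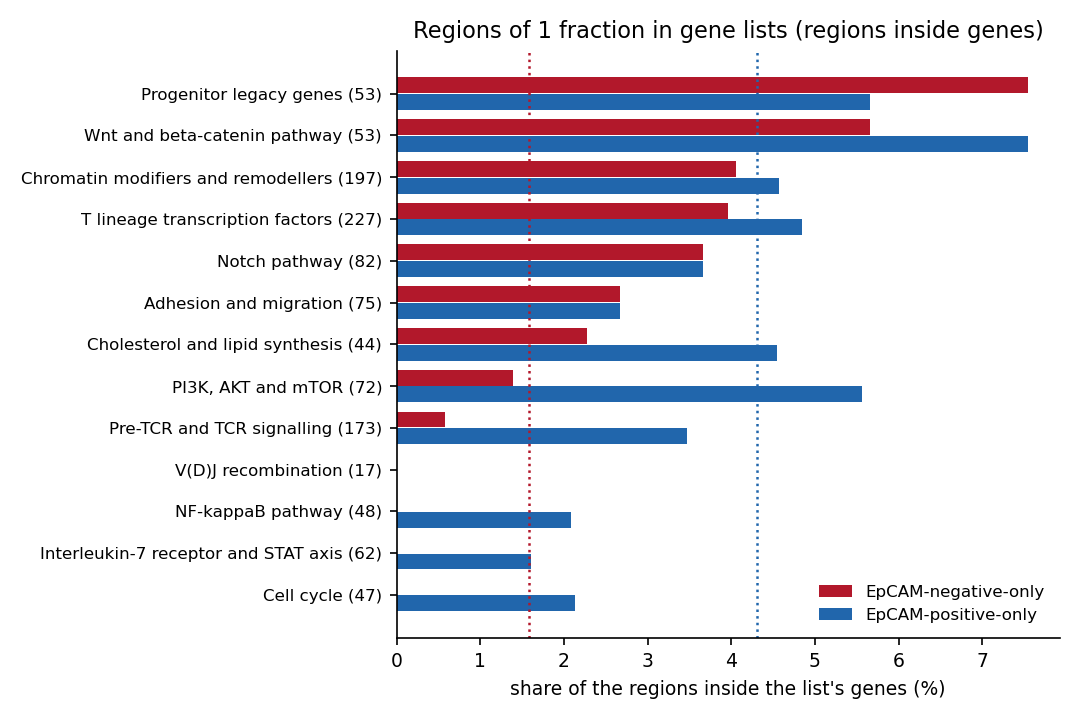
Share of the regions inside the genes of each list shown (x axis, percent; number of regions in brackets) that were EpCAM-negative-only and EpCAM-positive-only; the dotted lines mark the shares over all regions inside genes, 1.58% and 4.31%. Progenitor legacy genes have the highest EpCAM-negative-only share, 7.55%, which rests on 4 of 53 regions.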

How the data were processed

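ATAC-seq of EpCAM-negative and EpCAM-positive DN3 cells gave 1 deposited list of narrow peaks per library, 2 per fraction, grouped by the sample titles. Per the submitters' processing notes, the tools included MACS3, Bowtie2, Trimmomatic and Trim Galore, with Picard, SAMtools, deepTools, bedtools and FastQC, and the build was mm10 (GRCm38). For versions, settings, duplicates and any shift of reads, the sources used here say nothing. The authors' peak caller gave each deposited peak a score for display, its fold over the local background, −log10 p- and q-values and a summit offset. Scores were not used.

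Overlapping peaks (1 bp or more) on the autosomes, X and Y were joined. Pileup and background were solved from fold and −log10 p with the caller's Poisson definitions (tolerance 0.01), which gave a value for 99.9885% to 99.9959% of peaks per list, and were tested on simulated data. Genes were 21887 protein-coding RefSeq spans. A summit in several genes was given to the one whose end was nearest. Strand came from the RefSeq promoter table. The comparisons are descriptions with exact binomial intervals at 95%; that of the ratio is a log-normal interval. Named members were the 20 with the highest lower −log10 q, the 15 nearest a gene end, genes with several members, those in the gene lists and those at the edge of the rule; a few of these and 1 gene list are not reported here. Members and lists were chosen with earlier results of these data known. Python 3.11.15, pandas 2.3.3, numpy 2.4.6, scipy 1.17.1 and matplotlib 3.10.9 were used.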

Additional observations from a re-analysis of the deposited data

How the results depend on the processing

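No paired analysis was possible because the results are counts and shares of regions and come from no test. The main values are 347 members, a ratio of 0.366 to EpCAM-positive-only regions inside genes, and a share of 11.0% within 1000 bp of a gene end. Requiring a −log10 q of at least 5 in both libraries of the pair left 155 members and a ratio of 0.293. Lists of equal length gave a ratio of 0.678. Leaving out 1 library gave 680 to 1715 members, ratios of 0.203 to 0.991 and shares of 12.1% to 18.1%. Such sets need only 1 call in the reduced fraction. Under 4 choices together, a setting added after seeing the data, 271 members were left. Equal lists alone kept 310 members and the rule of no peak of the other fraction within 500 bp kept 302. The common minimum −log10 q of 2.07 and the depth scaling kept all 347, so only the first 2 choices acted on the members. That minimum lay below the lowest member value, 2.29, and could remove none. The depth scaling raised the pileup and background of members about 1.34 times, to the EpCAM-positive level, so it tended to keep them. The 271 lay in 267 genes, with a ratio of 0.524 and a share of 8.86%; 18 of the 20 strongest members were among them. Within 2000 bp the shares were 14.4% for EpCAM-negative-only and 36.9% for EpCAM-positive-only regions. In this and the other settings run, the gene-end share was lower for EpCAM-negative-only than for EpCAM-positive-only regions. The pileup of members is low, and their absence from the EpCAM-positive lists cannot be told from a signal below the caller's threshold.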
